A study of Mus musculus with 9 samples.

Results

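The epithelial-mesenchymal switch factors described here are 10 genes, Snai1, Snai2, Zeb1, Zeb2, Twist1, Twist2, Cdh1, Cdh2, Vim and Fn1, out of 20018 named genes with a probe on the array. Their probes were found through the RefSeq accession of the array design, and where a gene had several, the brightest probe that passed the filter on dim signals stood for it. Of the 10 genes, 9 passed that filter and were tested, and Cdh1 lay at background throughout. The arrays covered 9 clones of mouse embryonic cells, 3 diploid (sample names RRI2, RRI15 and RRI2-1, here clones 1, 2 and 3), 3 triploid (RRI2-5, RRI2-12 and RRI2-15) and 3 tetraploid (RRI2-2, RRI2-4 and RRI2-6). All 9 carry the same genotype, p53-/-, and lack the tumour suppressor p53. They were grown untreated in Eagle's minimum essential medium with 10% fetal bovine serum and each gave 1 one-colour (Cy3) array. The labels give no strain, age or sex, do not say how the ploidies arose, and leave unsaid whether replicate clones derive from different animals or cultures, so a p-value reflects only how far these samples spread, which may be technical. The cultures are sampled in bulk, so fewer cells of a type and less RNA per cell cannot be told apart.

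In the epithelial-mesenchymal transition a cell gives up the junctions and polarity of an epithelium and takes on the motile form of a mesenchymal cell. The switch is driven by DNA-binding repressors of the Snail, Zeb and Twist families, which bind E-boxes in the promoters of epithelial genes such as Cdh1. Its readouts are the exchange of E-cadherin (Cdh1) for N-cadherin (Cdh2), the intermediate filament vimentin (Vim) and the matrix protein fibronectin (Fn1). Embryonic fibroblasts normally sit at the mesenchymal end of this axis and express many of these factors without having been epithelial cells in culture.

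Levels are log2 processed signals with the 75th percentile of the array at 0, so that a step of 1 is a doubling of signal. They are compared between clones for 1 probe at a time and never between probes. Between 44.8% and 50.9% of the spots on an array lay well above background, 0 were saturated, and across all features, which are not independent replicates, clones correlated at 0.948 to 0.985 within groups and at 0.909 to 0.975 between groups. Of 10 fibroblast and mesenchyme markers, among them the member Twist2, 8 lay above background on all 9 arrays. The exceptions were Lum, at background in diploid clone 3 and all triploid clones, and Thy1, at background in triploid clone 3 and tetraploid clone 2. Thy1 read 6.42, 7.62 and 2.55 in the diploid clones, -2.04 and -2.63 in triploid clones 1 and 2, and 2.66 and -4.13 in tetraploid clones 1 and 3. Epcam, Cldn3 and Grhl2 (epithelium), Ptprc, Adgre1 and Spi1 (blood cells), Des, Myod1 and Myog (muscle), Emcn (endothelium), Gfap (glia) and Pou5f1 and Zfp42 (pluripotent cells) lay at background on all 9. Other genes of the same lists were above background on all 9: Cldn7 and Krt14 (epithelium), Pecam1 and Kdr (endothelium, Kdr at 3.75 to 5.17), Csf1r (2.19 to 3.56) and Itgam (3.41 to 4.79) among the blood genes, Acta2 (muscle), Sox10, Map2 and Tubb3 (neural) and Nanog and Utf1 (pluripotent cells). Their part in the results below was not tested. Diploid clone 1 was alone on slide 1 and the other 8 arrays shared slide 2. Triploid clone 1 stood apart from triploid clones 2 and 3 in several of the genes below, which are therefore given without it as well.

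RefSeq promoter windows (GRCm38.p6, the 250 bases before the transcription start) are described for 5 of the 10 genes: Snai1, Zeb2, Twist1, Twist2 and Vim. Windows of the other members are not reported here. Those of Twist1, Twist2 and Vim are printed because all 3 triploid clones lay below all 3 diploid clones for each of these genes, and that of Snai1 as a member whose groups overlapped in every comparison. The groups of Zeb2 overlapped too, and its 4 windows, 1 for each annotated start, are described but not printed. They are Twist1 at chr12:33957421-33957670, Twist2 at chr1:91801211-91801460, Vim at chr2:13574061-13574310 and Snai1 at chr2:167537945-167538194, all on the plus strand, with E-boxes (CANNTG, which reads the same on both strands) and CCAAT boxes (CCAAT, or ATTGG for the other strand) in capitals. The search for CCAAT was added after the sequences had been seen.
Twist1: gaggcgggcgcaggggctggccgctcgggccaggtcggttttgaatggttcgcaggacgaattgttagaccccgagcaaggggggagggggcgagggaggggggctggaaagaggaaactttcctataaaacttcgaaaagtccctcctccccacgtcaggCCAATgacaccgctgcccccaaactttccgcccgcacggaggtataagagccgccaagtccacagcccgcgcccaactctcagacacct
Twist2: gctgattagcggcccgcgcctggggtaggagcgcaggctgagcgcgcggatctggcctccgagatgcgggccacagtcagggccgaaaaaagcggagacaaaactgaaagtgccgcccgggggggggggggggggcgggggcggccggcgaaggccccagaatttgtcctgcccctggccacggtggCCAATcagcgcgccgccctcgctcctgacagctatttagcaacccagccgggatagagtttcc
Vim: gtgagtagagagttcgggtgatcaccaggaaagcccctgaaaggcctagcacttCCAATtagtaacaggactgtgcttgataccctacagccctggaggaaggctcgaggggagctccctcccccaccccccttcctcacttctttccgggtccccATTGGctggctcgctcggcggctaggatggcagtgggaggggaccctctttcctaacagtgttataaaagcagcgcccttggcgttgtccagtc
Snai1: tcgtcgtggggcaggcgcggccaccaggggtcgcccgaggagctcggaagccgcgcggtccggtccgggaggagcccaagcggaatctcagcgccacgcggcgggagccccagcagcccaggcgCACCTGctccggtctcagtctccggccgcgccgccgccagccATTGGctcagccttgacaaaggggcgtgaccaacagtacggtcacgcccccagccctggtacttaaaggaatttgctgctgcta
The windows of Twist1, Twist2, Vim and Zeb2 held 0 E-boxes, and that of Snai1 held 1, CACCTG, 126 bases before the start. This is the CAGGTG form on the other strand, which is one of the forms of CANNTG. Of 32851 promoter windows of the same length, 66.2% held a CANNTG and 17.2% a CAGGTG on either strand. A CCAAT box stood 84 bases before the start in Snai1, 89 in Twist1 and 63 in Twist2, Vim held 2, and of the 4 Zeb2 windows 1 held 2 and 3 held 0. Of all windows, 33.8% held at least 1. Snai1 held 27 CpG (70.0% GC), more than 91.4% of all windows, Twist2 held 23 (68.8% GC), more than 86.7%, and Twist1 held 18 (62.4% GC), more than 78.3%. Vim, with 8 CpG at 58.4% GC, and Zeb2, with 6, 6, 9 and 14, were nearer the medians of 6 CpG and 52.4% GC. A match of letters is a description of the window and says nothing about binding.

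The question the design poses is how expression differs with the number of chromosome sets. Snai2 was the member that differed most firmly. It fell in the triploid clones against the diploid clones by 1.65 on the log2 scale, about 3.14-fold, and against the tetraploid clones by 2.24, about 4.73-fold. Zeb1, Twist1, Twist2 and Vim also had all 3 triploid clones below all diploid and all tetraploid clones, but none of these passed the threshold (adjusted p of 0.05). Snai1, Zeb2, Cdh2 and Fn1 had overlapping triploid and diploid clones. Between tetraploid and diploid clones no member passed.

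**Figure D1:**
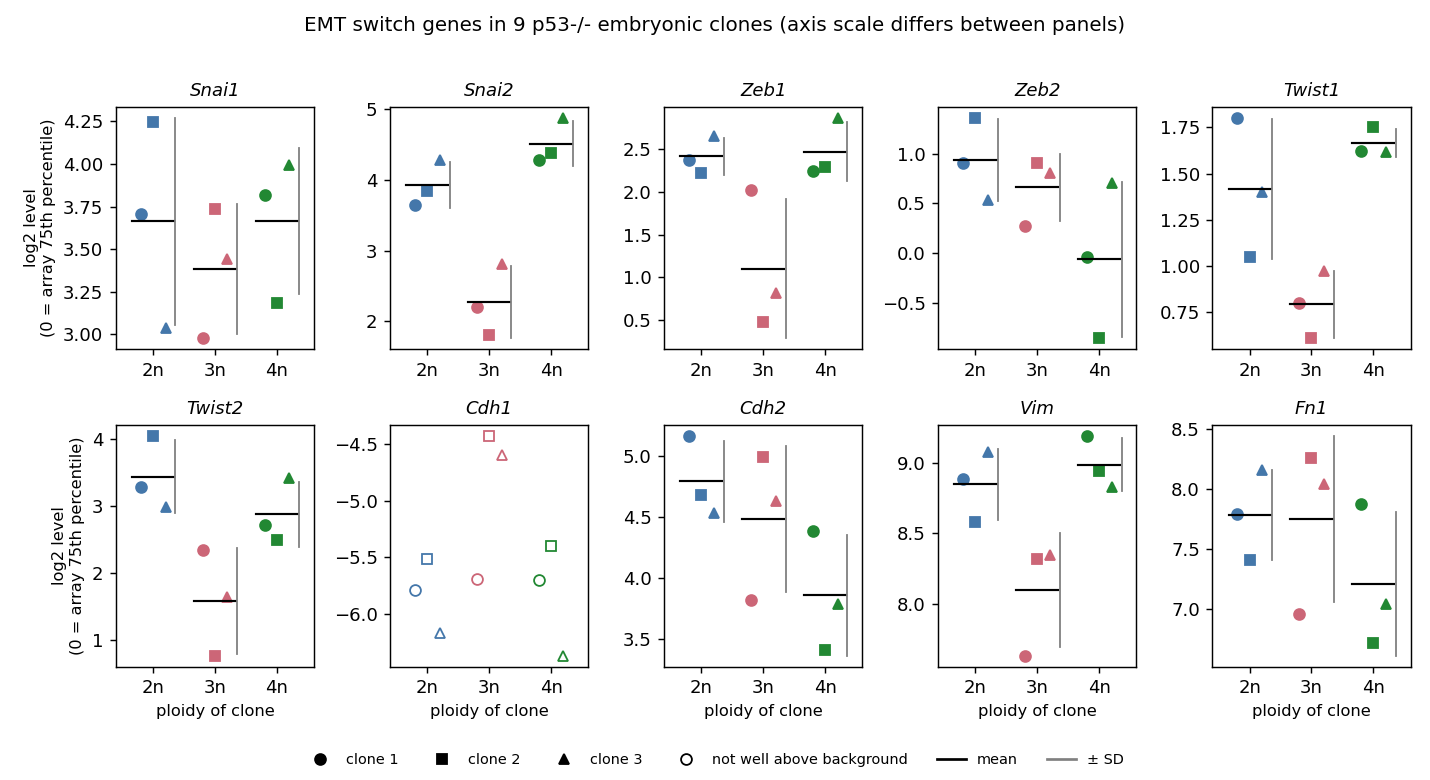
Log2 level of each member (0 is the 75th percentile of the array; the axis differs between panels) in diploid (2n), triploid (3n) and tetraploid (4n) clones. Points are clones 1 to 3, open where not well above background, black lines are means and grey lines ± SD, drawn where at least 1 clone of the group was measured. The triploid clones of Snai2 lie between 1.80 and 2.81, below all other clones.

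Snai2 (RefSeq NM_011415) encodes Slug, a zinc-finger repressor of the Snail family that is prominent in neural crest and fibroblasts. Its log2 levels were 3.65, 3.84 and 4.28 in diploid clones 1, 2 and 3, 2.20, 1.80 and 2.81 in the triploid clones and 4.29, 4.38 and 4.87 in the tetraploid clones. The 3 groups did not overlap: every triploid clone was low, and every tetraploid clone lay above every diploid clone, if narrowly. Group means were 2.27 ± 0.51 (SD, n = 3) for triploid, 3.92 ± 0.32 for diploid and 4.51 ± 0.32 for tetraploid clones. In limma, the triploid clones were lower than the diploid clones by -1.65 ± 0.31 (SE; 95% interval -2.36 to -0.94; adjusted p = 0.0420). Against the tetraploid clones the difference was -2.24 ± 0.31 (95% interval -2.95 to -1.53; adjusted p = 0.0116). The step between tetraploid and diploid clones, 0.59 ± 0.31, did not pass (limma, adjusted p = 0.413).

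The call of Snai2 against the tetraploid clones held in each refit without 1 clone, at differences of -2.51 to -2.01 and limma adjusted p of 0.0112 to 0.0472. The call against the diploid clones was near the threshold. It held without triploid clone 1 (adjusted p = 0.0390), tetraploid clone 2 (0.0485) or tetraploid clone 3 (0.0418). It ended without diploid clone 1 (adjusted p = 0.0810), diploid clone 2 (0.0952), diploid clone 3 (0.135), triploid clone 2 (0.145), triploid clone 3 (0.0531) or tetraploid clone 1 (0.0697), while the difference stayed between -1.92 and -1.41. Leaving out diploid clone 1 is the same fit as a slide block.

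Snai1 (NM_011427), the founding vertebrate Snail repressor and a direct repressor of Cdh1, did not follow Snai2. The diploid clones had log2 levels of 3.70, 4.25 and 3.04, the triploid clones 2.98, 3.74 and 3.44 and the tetraploid clones 3.82, 3.18 and 4.00. High and low clones occurred in each group, and all 3 groups overlapped. The limma difference of triploid from diploid clones was -0.28 ± 0.36 (95% interval -1.10 to 0.54; adjusted p = 0.715), and that of tetraploid from diploid clones was 0.00 ± 0.36 (95% interval -0.82 to 0.82; adjusted p = 0.999). Without triploid clone 1 the triploid clones differed by -0.07 from diploid and by -0.08 from tetraploid clones, in place of -0.28 for both. The SD between clones of a group was 0.48 on average for Snai1 and exceeded the SD of 0.16 between the group means. Snai2 showed the opposite order, with 0.39 within groups and 1.16 between their means.

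Zeb1 (NM_011546) encodes a zinc-finger and homeodomain repressor that holds mesenchymal cells in their state in a mutual block with the miR-200 family. Its log2 levels were 2.37, 2.23 and 2.65 in the diploid clones, 2.02, 0.47 and 0.81 in the triploid clones and 2.25, 2.29 and 2.87 in the tetraploid clones. Triploid clones 2 and 3 were low, and triploid clone 1 lay just under the lowest diploid clone. The triploid mean of 1.10 ± 0.81 (SD, n = 3) stood against 2.42 ± 0.22 and 2.47 ± 0.34 in diploid and tetraploid clones. With all 9 clones neither difference passed in limma, at -1.32 ± 0.39 from diploid (95% interval -2.19 to -0.44; adjusted p = 0.110) and -1.37 ± 0.39 from tetraploid clones (adjusted p = 0.0923). Without triploid clone 1, both passed, at -1.78 ± 0.28 (adjusted p = 0.0107) and -1.83 ± 0.28 (adjusted p = 0.00999). In each comparison this was the 1 call in 9 refits without 1 clone, and the limma adjusted p reached 0.322 and 0.264 in others. Leaving out triploid clone 1 also raised the calls over all features against diploid clones from 400 to 1434. Diploid and tetraploid clones differed by 0.05 ± 0.39, with a 95% interval of -0.82 to 0.93.

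Zeb2 (NM_015753), the sister gene of Zeb1, had another order. Levels were 0.90, 1.36 and 0.54 in the diploid clones, 0.27, 0.90 and 0.81 in the triploid clones and -0.04, -0.86 and 0.71 in the tetraploid clones. Tetraploid clone 2 was the lowest, tetraploid clone 3 lay within the range of the diploid clones, and all groups overlapped. The tetraploid clones differed from the diploid clones by -0.996 ± 0.402 in limma (95% interval -1.90 to -0.09; adjusted p = 0.294), and the triploid clones by -0.27 ± 0.40 (adjusted p = 0.753), or -0.08 ± 0.44 without triploid clone 1. The triploid clones stood 0.72 ± 0.40 above the tetraploid clones (adjusted p = 0.341), or 0.92 ± 0.44 without triploid clone 1. The other Zeb2 probe was above background on 1 of 9 arrays and gave no second reading.

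Twist2 (NM_007855) encodes a basic helix-loop-helix factor of mesenchyme and dermis. The diploid clones read 3.29, 4.06 and 2.99, the triploid clones 2.35, 0.77 and 1.65 and the tetraploid clones 2.72, 2.50 and 3.43 on the log2 scale. All triploid clones were below all others, and triploid clone 2 was the lowest, as it was for Snai2 and Zeb1. Diploid and tetraploid clones overlapped. The triploid clones differed from the diploid clones by -1.85 ± 0.45 in limma (95% interval -2.86 to -0.85; adjusted p = 0.0704) and from the tetraploid clones by -1.29 ± 0.45 (adjusted p = 0.147). Without triploid clone 1 the difference from the diploid clones was -2.23 ± 0.43 (adjusted p = 0.0232) and that from the tetraploid clones -1.67 ± 0.43 (adjusted p = 0.0611). The former was the 1 call of Twist2 in 9 refits without 1 clone, with a limma adjusted p of up to 0.216 in others.

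Twist1 (NM_011658), the close relative that acts in cranial mesoderm and in metastasis, differed less. Its levels were 1.80, 1.05 and 1.40 in the diploid clones, 0.80, 0.61 and 0.97 in the triploid clones and 1.62, 1.75 and 1.62 in the tetraploid clones. The triploid clones were again the 3 lowest, with a narrow gap to diploid clone 2. The limma difference was -0.62 ± 0.24 from diploid clones (95% interval -1.16 to -0.08; adjusted p = 0.181) and -0.87 ± 0.24 from tetraploid clones (adjusted p = 0.0850). Twist1 did not depend on triploid clone 1: the differences without it were -0.63 and -0.87.

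The mesothelial marker genes Wt1, Upk3b, Upk1b and Lrrn4 varied with the same triploid clones as Zeb1 and Twist2. Wt1 read 5.85 and 5.39 in triploid clones 2 and 3, Upk1b 5.60 and 4.51, Upk3b 4.86 and 3.68 and Lrrn4 3.88 and 2.39. All 4 lay at background in triploid clone 1. The summed signal of the 5 genes of this list, Msln included and in units of the 75th percentile of the array, ran from 3.93 to 188 in triploid, 3.32 to 16.7 in diploid and 16.6 to 46.5 in tetraploid clones. The number of the 5 genes above background ran from 1 to 5 per clone in triploid and in diploid clones and from 1 to 2 in tetraploid clones. Their part in the values of Zeb1 and Twist2 was not tested.

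Cdh1 (NM_009864) encodes E-cadherin, the adhesion molecule of epithelial junctions. It was not well above background in any of the 9 clones. Its processed signals ran from 2.99 to 6.66 in 7 clones and reached 13.6 in triploid clone 2 and 12.7 in triploid clone 3, all too low to be called by the scanner software. No fold change is given.

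Cdh2 (NM_007664) encodes N-cadherin, the mesenchymal and neural counterpart, and was bright in all 9 clones. The log2 levels were 5.17, 4.68 and 4.53 in the diploid clones, 3.82, 5.00 and 4.63 in the triploid clones and 4.39, 3.40 and 3.78 in the tetraploid clones. All tetraploid clones lay below all diploid clones, and the triploid clones spanned both. The tetraploid clones differed from the diploid clones by -0.94 ± 0.37 in limma (95% interval -1.76 to -0.11; adjusted p = 0.281), which did not pass. The other Cdh2 probe gave -1.04 for the same difference and followed the probe used at r = 0.994 over the 9 clones, which describes the pair of probes and not the clones. The difference of triploid from diploid clones was -0.31 ± 0.37 (adjusted p = 0.684), and 0.02 without triploid clone 1. Triploid clones stood 0.63 ± 0.37 above tetraploid clones (adjusted p = 0.364), or 0.96 ± 0.34 without triploid clone 1.

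Vim (NM_011701) encodes vimentin, the intermediate filament of mesenchymal cells. It read 8.89, 8.58 and 9.08 in the diploid clones, 7.63, 8.32 and 8.35 in the triploid clones and 9.20, 8.94 and 8.83 in the tetraploid clones. All 9 clones were bright, and the triploid clones were the 3 lowest, with triploid clone 1 lowest of all. In limma the triploid clones differed from the diploid clones by -0.75 ± 0.26 (95% interval -1.34 to -0.16; adjusted p = 0.157) and from the tetraploid clones by -0.89 ± 0.26 (adjusted p = 0.100). Without triploid clone 1 these were -0.52 ± 0.25 (adjusted p = 0.244) and -0.66 ± 0.25 (adjusted p = 0.161). In triploid clone 1 the smooth muscle actin gene Acta2, an actin of contractile fibroblasts, was also low, at 7.08 against 8.32 to 9.67 in the other clones. Its part in the values of Vim was not tested.

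Fn1 (NM_010233) encodes fibronectin, the matrix protein that integrins assemble into fibrils. Its levels were 7.78, 7.40 and 8.16 in the diploid clones, 6.96, 8.25 and 8.03 in the triploid clones and 7.87, 6.71 and 7.04 in the tetraploid clones. The triploid clones held both high and low values, and all groups overlapped. The limma differences were -0.03 ± 0.42 for triploid against diploid (95% interval -0.97 to 0.90; adjusted p = 0.977), -0.58 ± 0.42 for tetraploid against diploid (adjusted p = 0.549) and 0.54 ± 0.42 for triploid against tetraploid clones (adjusted p = 0.476). Without triploid clone 1 the triploid clones stood 0.36 ± 0.38 above the diploid clones (adjusted p = 0.609) and 0.94 ± 0.38 above the tetraploid clones (adjusted p = 0.190).

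**Figure D2:**
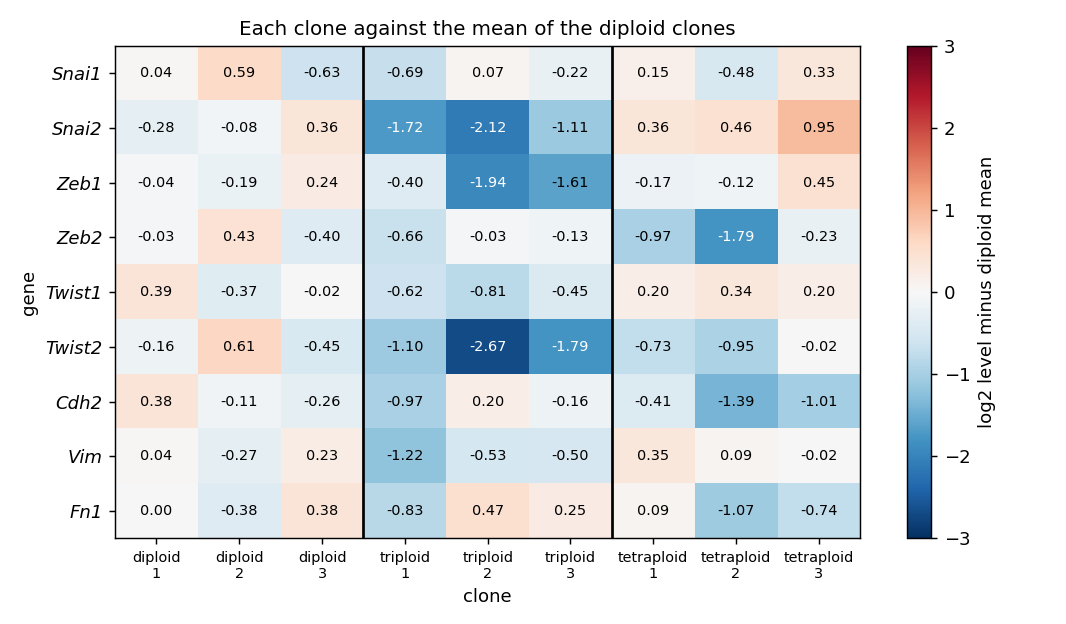
Log2 level of the 9 tested members in each clone minus the mean of the 3 diploid clones, with the value in each cell (blue lower, red higher). The lowest values are those of Twist2 and Snai2 in triploid clone 2, at -2.67 and -2.12.

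Counted over the 9 tested members, 1 was called lower in triploid than in diploid clones, Snai2, against a background of 1.22% of the 21797 features called lower and 1.84% called in either direction. Of the 9, 5 had triploid clones all below the diploid clones, namely Snai2, Zeb1, Twist1, Twist2 and Vim, and 0 the reverse, against 10.8% and 17.2% of all features. The median difference of the 9 was -0.62, and that of all features was 0.10. At an unadjusted p below 0.05, 5 members were lower and 0 higher, against 9.61% and 11.6% of all features. The 10 genes were chosen with earlier results of these data known, so these shares describe the members and are no test of the family.

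Against the tetraploid clones the triploid clones showed 1 called member, again Snai2, with 1.61% of all features called lower and 2.7% in either direction. The same 5 members did not overlap and were lower, where 11.3% of all features were. At an unadjusted p below 0.05, 5 members were lower and 0 higher, against 9.89% and 10.9% of all features. The median was -0.87, against 0.17 for all features. These counts share the triploid clones with those against the diploid clones and are given side by side, not as a second test. Over all 3 groups, the limma F test called Snai2 alone (adjusted p = 0.0208), where 2.38% of all features were called.

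Between tetraploid and diploid clones 0 of 9 members passed in limma, with 0.0734% of all features called. At an unadjusted p below 0.05 Cdh2 and Zeb2 were lower and 0 members higher, against 8.36% and 6.44% of all features. Cdh2 had all tetraploid clones below the diploid clones and Snai2 all above, where 11.1% and 11% of all features did. The median of the 9 members was 0.00, and that of all features was -0.01. The intervals still span sizeable differences: for Snai2 -0.12 to 1.30 and for Twist2 -1.57 to 0.44.

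**Figure D3:**
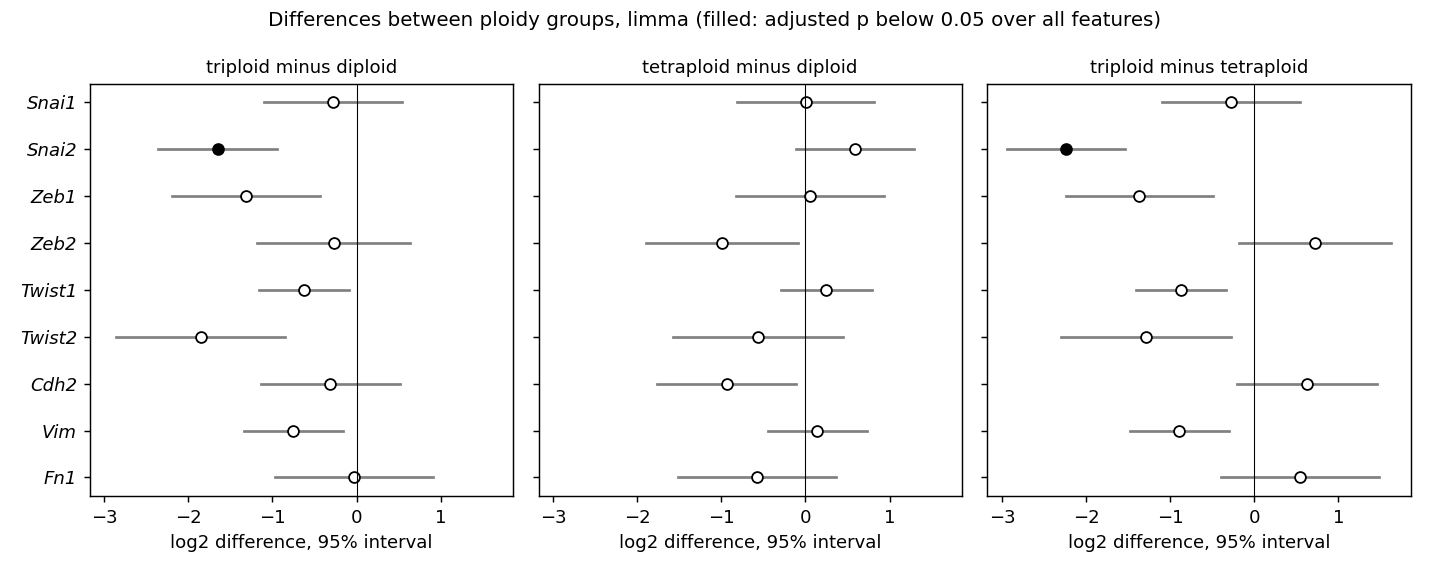
Log2 differences between ploidy groups from limma over 3 clones a group, with 95% intervals (grey) that are not adjusted for multiple tests, filled where the adjusted p is below 0.05. Snai2 alone is filled, at -1.65 for triploid minus diploid and -2.24 for triploid minus tetraploid.

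**Figure D4:**
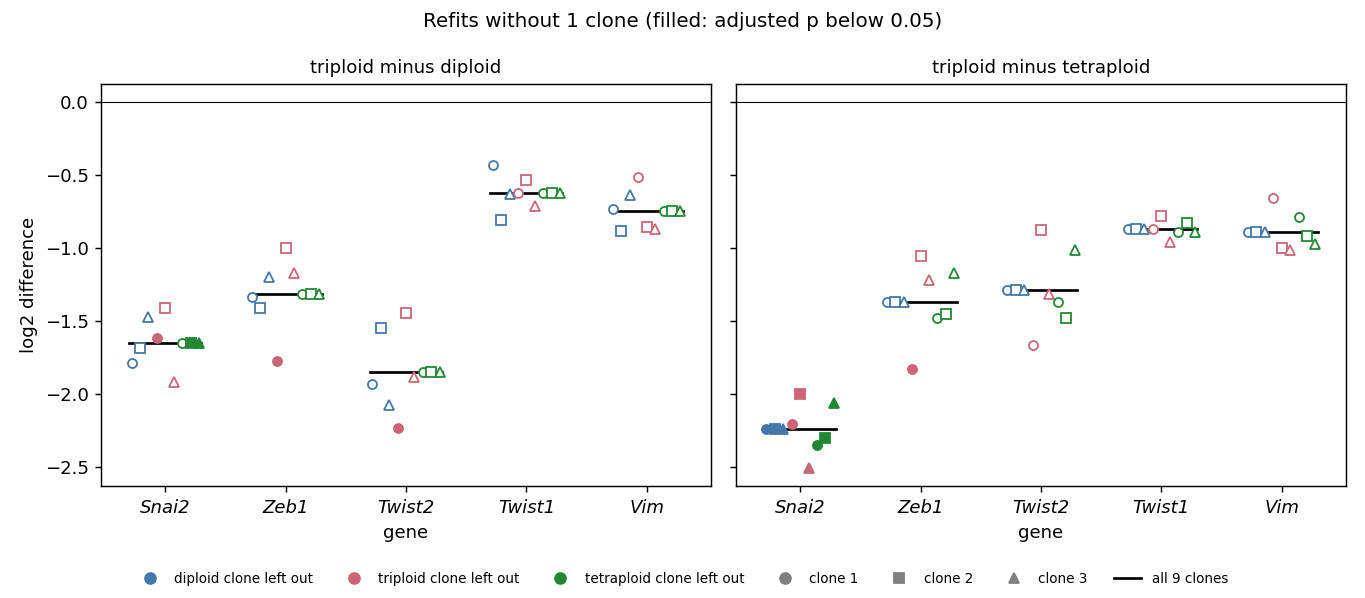
Log2 differences of the 5 members whose triploid clones did not overlap the others, refitted without 1 clone at a time (colour and shape name the clone left out, filled where the adjusted p is below 0.05; black lines are the values with all 9 clones). Every difference stays below 0, and Zeb1 passes only without triploid clone 1, at -1.78 and -1.83.

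The members varied together in part. Of the 36 pairs among 9 members, 5 had a Pearson correlation over the 9 clones that passed an exact permutation test after Benjamini-Hochberg adjustment, and 0 passed by Spearman. In Snai2 with Twist1, Snai2 with Vim, Zeb1 with Twist2 and Twist1 with Vim, triploid clones lay apart from the rest, so no r over all 9 clones is given. The deviations of the clones from their group means, which leave the group differences out, correlated at 0.141, 0.0836, 0.662 and 0.242 in these pairs, as a description. Cdh2 and Fn1 were not split in that way. Their Pearson's r was 0.835 (exact permutation p = 0.00692, adjusted p = 0.0498), Spearman's rho was 0.65 (exact permutation p = 0.0666, adjusted p = 0.266), and the deviations of the clones from their group means correlated at 0.809. Without the clones farthest from the median of Cdh2, tetraploid clones 2 and 3, r was 0.637 (exact permutation p = 0.128), so the relation rests in part on them, and 0 of the 36 pairs passed when the 2 farthest clones of each were left out.

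The genes whose levels followed each member most closely over the 9 clones were listed by Pearson's r among 11501 named genes, as a description in which group differences and single clones count alike. Snai2 ran closest with Pparg (r = 0.988), the nuclear receptor of fat cells, and Tbx15 (0.975), a T-box factor of mesenchyme, and 117 genes exceeded 0.9. Zeb1 ran closest with Dctn5 (0.986) and Spata6 (0.979), and 168 genes exceeded 0.9. For Twist2 the closest were Nectin3 (0.977), an adherens junction protein, and Rnf113a2 (0.952), and for Twist1 Prc1 (0.986), a cytokinesis protein, and Dis3l2 (0.969). Vim ran with Ift43 (0.982), Fn1 with B4galt3 (0.954), Cdh2 with Snx24 (0.963) and Zeb2 with Ripk3 (0.943). Snai1 had 1 gene above 0.9, the signalling inhibitor Spry2 (0.903).

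Other genes of the programme were taken from 9 lists, which were also chosen with earlier results of these data known. Their counts are a description. Partners and cofactors of the switch factors (24 of 25 tested) held 0 genes called between triploid and diploid clones. At an unadjusted p below 0.05 in limma, 7 were lower and 3 higher, against 9.61% and 11.6% of all features. Against tetraploid clones 1 gene was called lower, where 1.61% of all features were. That gene was Klf8, a Krüppel-like repressor of Cdh1. It read 0.45, -0.31 and -0.23 in the tetraploid clones and was not well above background in any triploid clone. It was at least 12.9-fold lower there, where "at least" sets the mean of the bright group against the lowest signal called above background, or the probe's own signal where higher, on each dim array. In the diploid clones Klf8 read -0.25 and 1.09 in clones 1 and 3 and was at background in clone 2. Klf8 thus passed the filter through the tetraploid clones alone and had to differ, so its call is no support for a difference, and its p is left out. Regulators of Snail protein turnover (12 of 13 tested) and TGF-beta inputs (22 of 23 tested) held 0 called genes in any comparison. At an unadjusted p below 0.05, triploid against diploid, the former had 2 lower and 0 higher and the latter 4 and 1. Of all features, 9.61% were lower and 11.6% higher at that level. The median differences of triploid from diploid clones were -0.17 for the partners, 0.08 for the turnover regulators and 0.05 for the TGF-beta inputs, against 0.10 for all features.

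Of the cadherins beside Cdh1 and Cdh2, 5 of 13 could be tested, and 2 of the 5 were called lower in the triploid than in the tetraploid clones, where 1.61% of all features were. Cdh13, a cadherin anchored by a lipid, read 0.11 and -2.13 in triploid clones 1 and 2 and was at background in clone 3, against 3.28, 2.56 and 3.17 in the tetraploid clones (-5.45 ± 1.08 with the dim array at its own signal; limma adjusted p = 0.0364). Cdh17, the cadherin of liver and intestine, was at background in all triploid clones and at least 3.66-fold lower than in the tetraploid clones, which read -2.54, -2.03 and -0.98. It passed the filter through the tetraploid clones alone and had to differ. No p is given, and its call is no support within the count of 2. Against the diploid clones 0 cadherins passed in limma. At an unadjusted p below 0.05, 2 were lower and 0 higher, against 9.61% and 11.6% of all features. Catenins and adherens junction genes (10 of 11 tested) held 0 called genes in any of the 3 comparisons. Between triploid and diploid clones 2 of them were lower and 0 higher at that level, beside the same shares of all features. The largest differences of this list between triploid and diploid clones were those of Nectin1, at -1.48 ± 0.40 (limma adjusted p = 0.0913), and Nectin3, at -1.34 ± 0.30 (adjusted p = 0.0603), which encode adhesion molecules of these junctions. Their triploid clones all lay below the diploid clones. Nectin2 went the other way, with all triploid clones above the diploid and the tetraploid clones. Its differences were 0.88 ± 0.53 (limma adjusted p = 0.380) and 2.22 ± 0.53 (adjusted p = 0.0601). For the beta-catenin gene Ctnnb1 the difference was 0.04 ± 0.22, and for the alpha-catenin gene Ctnna1 it was -0.16 ± 0.22.

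Epithelial genes and their guardians were mostly dark, with 13 of 32 tested, of which 2 were called lower in triploid than in diploid clones (1.22% of all features) and 1 against tetraploid clones (1.61%). Krt19, a keratin of simple epithelia, fell in the triploid clones. It read 4.89, 3.46 and 5.01 in the diploid clones, -1.04, 0.48 and -1.31 in the triploid clones and 4.92, 5.61 and 4.95 in the tetraploid clones. The groups were far apart: the differences were -5.08 ± 0.54 from diploid (limma adjusted p = 0.00459) and -5.78 ± 0.54 from tetraploid clones (adjusted p = 0.00288), and both held in each refit without 1 clone. Krt7, another keratin of simple epithelia, fell by 2.19 from diploid clones (SE 0.43, limma adjusted p = 0.0444), with triploid values of -2.50, -1.76 and -1.89 against 1.12, -0.63 and -0.07. The median of the 13 was -0.20 between triploid and diploid clones and 0.06 between triploid and tetraploid clones, against 0.10 and 0.17 for all features.

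Mesenchymal genes had the lowest median of the lists between triploid and diploid clones, -1.01 over the 27 of 28 genes tested. Of these, 0 passed in limma, with 12 lower and 5 higher at an unadjusted p below 0.05, against 9.61% and 11.6% of all features. By sign alone, 18 were lower and 9 higher. The largest drop was that of Thy1, at -8.71 ± 1.95 with the dim array at its own signal. Thy1 passed the filter through the diploid clones alone, where it was high. Its drop is thus no support for a difference, and its p is left out. Mmp2, among the 5 higher, passed through the triploid clones alone in the same way. The largest rise was that of Dcn, at 4.13 ± 1.46 (limma adjusted p = 0.158), whose groups overlapped. Against the tetraploid clones the median was -0.50, and 2 genes were called lower (1.61% of all features). Lum, the matrix proteoglycan lumican, was at background in all triploid clones and at least 7.98-fold lower than in the tetraploid clones, which read -2.19, -0.18 and 0.19. It passed the filter through the tetraploid clones alone and had to differ. No p is given, and its call is no support within the count of 2. Loxl1, an elastin cross-linking enzyme, read 2.43, 2.46 and 2.06 in the triploid and 3.83, 3.59 and 5.12 in the tetraploid clones (-1.86 ± 0.40, limma adjusted p = 0.0457).

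While Fn1 itself overlapped between groups, 3 of 21 tested genes for fibronectin receptors and matrix assembly were called in at least 1 comparison, namely 2 against diploid and 2 against tetraploid clones, where 1.22% and 1.61% of all features were called lower. Itga5, the alpha chain of the classical fibronectin receptor, read -0.06, 0.20 and 0.35 in the triploid clones, 1.75, 1.41 and 1.87 in the diploid clones and 1.42, 1.53 and 1.33 in the tetraploid clones. The triploid clones were low without overlap, by -1.51 ± 0.22 (limma adjusted p = 0.0167) and -1.27 ± 0.22 (adjusted p = 0.0233). Itga8 was at background in all triploid clones and at least 9.94-fold lower than in the diploid clones, which read -0.59, -0.06 and -0.57. It passed the filter through the diploid clones alone, since tetraploid clone 2 was at background too, and had to differ. No p is given, and its call is no support within the count of 2 against diploid clones. Sdc2, a heparan sulphate proteoglycan of the cell surface, fell against the tetraploid clones by 1.76 (SE 0.28, limma adjusted p = 0.0173), with 4.18, 3.50 and 3.90 in the triploid and 5.49, 5.71 and 5.66 in the tetraploid clones. The beta chain gene Itgb1 did not pass, at -0.02 ± 0.25 between triploid and diploid clones.

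Beside Vim, 7 of 12 intermediate filament and linker genes were tested, and 2 of the 7 fell in the triploid clones in both comparisons, against 1.22% and 1.61% of all features called lower. Synm, synemin, a filament protein that pairs with vimentin, was at background in all triploid clones. It read 0.49, -2.19 and 0.08 in the diploid and 0.72, 0.25 and -0.68 in the tetraploid clones. It was at least 9.06-fold lower than in the diploid clones (limma adjusted p = 0.0265) and at least 14.1-fold lower than in the tetraploid clones (limma adjusted p = 0.0116). Both p-values take the dim triploid arrays at their own signal. Against the diploid clones the call of Synm ended in 8 of 18 alternatives, at differences of -4.82 to -1.86 over all of them. Plec, plectin, which ties filaments to junctions and to other parts of the cytoskeleton, read 4.95, 5.05 and 5.06 in the triploid clones, 5.91, 6.02 and 6.06 in the diploid clones and 6.06, 5.77 and 6.03 in the tetraploid clones. The triploid clones were close to each other and below all others, by -0.98 ± 0.19 (limma adjusted p = 0.0444) and -0.93 ± 0.19 (adjusted p = 0.0394).

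Of these calls on other genes of the programme, those of Krt19 in both comparisons and of Synm against the tetraploid clones held in each of the 9 refits without 1 clone. The others lost their call in at least 4 of the 9. Plec was called in 3 of 9 against diploid and 2 of 9 against tetraploid clones, and for each gene the direction stayed the same. Between tetraploid and diploid clones 0 genes of the 9 lists passed in limma. At an unadjusted p below 0.05 in this comparison, 8.36% of all features were lower and 6.44% higher. The mesenchymal list had 4 lower and 0 higher at that level, and the epithelial list 3 and 0. The catenins had 2 and 0, the other cadherins 1 and 1, and the filaments 1 and 0. The fibronectin receptors had 0 and 3, the TGF-beta inputs 1 and 4, and the remaining lists 0 and 0. Among the lower genes, Thy1, Krt18, Esrp1 and Ctnna2 passed the filter through the diploid clones alone. Cdh17, the 1 higher cadherin, passed through the tetraploid clones alone. These genes are no support for a difference within the counts.

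**Figure D5:**
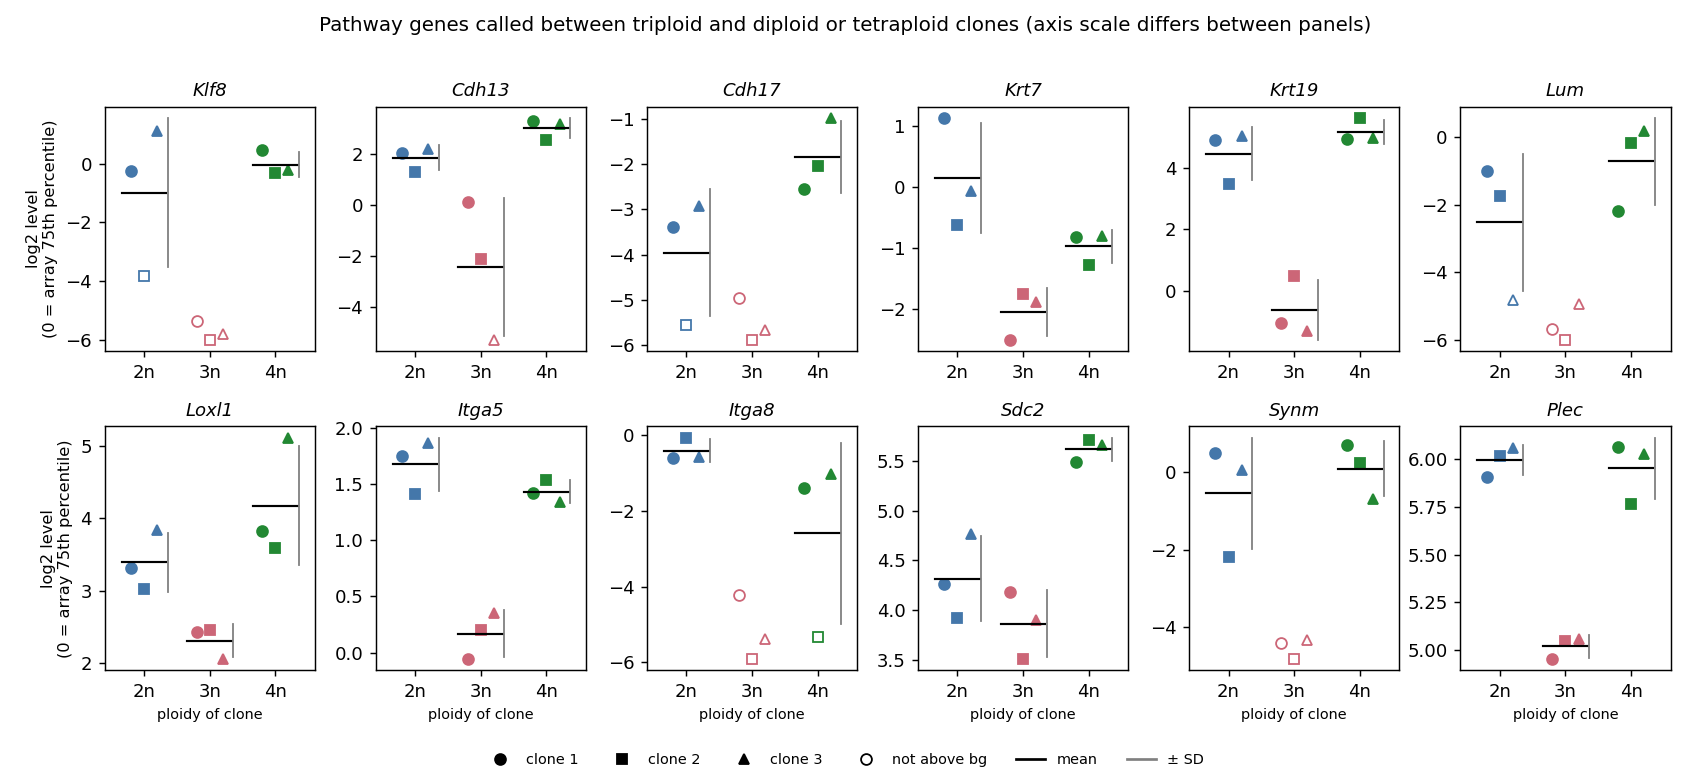
Log2 level of the 12 list genes called between triploid clones and diploid or tetraploid clones (0 is the 75th percentile of the array; the axis differs between panels; open points were not well above background; black lines are means and grey lines ± SD, drawn where at least 1 clone of the group was measured). The triploid clones of Krt19 lie between -1.31 and 0.48, and those of Plec between 4.95 and 5.06, below all other clones.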

How the data were processed

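Each of the 9 clones was read on 1 one-colour Agilent array. Per the file headers, the scanner software was Feature Extraction 10.7.3.1, and the deposited processed signal is an intensity from which background was subtracted; arrays were not normalized to each other. A second deposited file, made by the authors, holds log2 values relative to diploid clone 1 and served as an alternative; up to 1 constant for each array it matched the scanner log2 signal minus that of diploid clone 1, within 0.001 at 100% of probes. The genotype field reads p53-/- in every sample, while the description text of 8 samples has another number after the p, taken here as an entry error.

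From the intensities, log2 signals were centred on the 75th percentile of each array. A probe was kept if 1 group or more had it well above background on each of its arrays, and probes whose spots were marked as outliers (40) were dropped, leaving 25469 of 55681. Symbols came from RefSeq accessions through a table of GRCm38.p6 (26413 probes named, 29268 not). Tests ran over 21797 features (12434 genes and 9363 unnamed probes) with limma 3.58.1 in R 4.3.3, with 1 mean per group, prior degrees of freedom of 3.19, Benjamini-Hochberg adjustment and a threshold of 0.05. Clones were grouped by the ploidy in the labels. Precision is limited by the number of clones. The 10 genes and the lists were chosen with earlier results of these data known. Of the mesenchymal list, 1 gene is not reported here and is left out of its counts. Of the list genes, each one called in any pairwise comparison is named, up to 5 a list by size, and for each tested gene the 5 most like were ranked. Catenins, nectins, integrins, mesenchymal genes and markers named without a call were picked after their values were seen. Alternatives covered scaling, background correction, the filter, probe averaging, the samples fitted, a slide block, a clone number block and each clone left out.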

Additional observations from a re-analysis of the deposited data

How the results depend on the processing

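Against 19 alternatives, the count of members called between triploid and diploid clones was 1, and 0 with no filter on dim probes, with only the groups compared or with slide as a block; refits without 1 clone gave 0 to 3, the 3 being Snai2, Twist2 and Zeb1 without triploid clone 1. Between triploid and tetraploid clones it was 1 throughout, or 1 to 2 without 1 clone, and between tetraploid and diploid clones 0 throughout. The F test called 0 with no filter and 0 to 3 without 1 clone. The 5 correlated pairs became 0 with the mean of all kept probes of a gene and 0 without the 2 farthest clones. Snai2 kept its sign in all, at -1.92 to -1.41 against diploid clones (adjusted p 0.0312 to 0.145, past the threshold in 10 of 19) and -2.51 to -2.01 against tetraploid clones (adjusted p 0.00698 to 0.0472).

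Signs turned for small differences that passed in none of these fits. Tetraploid minus diploid, with the percentile over probes detected on all arrays and with quantile normalization, was -0.123 and -0.123 for Snai1 and -0.0705 and -0.0518 for Zeb1; the former scaling moved the median of all features between triploid and diploid clones from 0.10 to -0.05 and the split of calls from 266 lower and 134 higher to 446 and 122. Refits without 1 clone gave, for tetraploid minus diploid, -0.312 to 0.294 for Snai1 (below 0 without diploid clone 3 or tetraploid clone 1 or 3) and -0.144 to 0.171 for Zeb1 (below 0 without diploid clone 2 or tetraploid clone 3). For triploid minus diploid they gave -0.592 to 0.0143 for Snai1 (above 0 without diploid clone 2), -0.566 to 0.0209 for Cdh2 (above 0 without triploid clone 1) and -0.287 to 0.362 for Fn1 (above 0 without diploid clone 3 or triploid clone 1). The cause was not tested. Calls over all features between triploid and diploid clones were 400, and 103 with no filter, 81 with the slide block, 206 with only the groups compared and 1434 without triploid clone 1.

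With clone number as a replicate block, 1 member was called against diploid and 1 against tetraploid clones, Snai2 at -1.65 (limma adjusted p = 0.0326) and -2.24 (0.00953). Deviations of same-numbered clones from their group means correlated at -0.13 to 0.09. Differently numbered clones were not set beside them, so whether the numbers mark a shared culture or batch was not tested. The normexp correction ran on median pixel signals in place of means. Signal over background limits Cdh1, which could not be tested, and the genes given as "at least".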
